A study of Mus musculus with 44 samples.

Results

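The genes described here are the ligands and receptors of axon guidance, 72 of the 32287 gene identifiers that were quantified. They were taken by name alone: 8 ephrins (Efna, Efnb), 14 Eph receptors (Epha, Ephb), 20 semaphorins (Sema3 to Sema7), 11 plexins and neuropilins (Plxn, Nrp), 3 Slit genes, 4 Robo genes, 6 netrins (Ntn, Ntng) and 6 netrin receptors (Dcc, Neo1 and the Unc5 genes). Their RNA was measured in 44 low-input poly(A) libraries of mouse embryos in which extraembryonic and embryonic descendants carry different fluorescent proteins. In all groups the embryos came from mCherry+ morulae (CD1/G4) aggregated with GFP+ embryonic stem cells (G4). The study names the stem cell background F1G4, and bred its mCherry+ males in a colony crossed to C57BL/6J. At E6.5 the groups were the epiblast (Epi, GFP+), the distal extraembryonic endoderm (exEndo 1, mCherry+) and the proximal extraembryonic endoderm (exEndo 2, mCherry+), 4 libraries each, dissected from single embryos. At E9.5 they were extraembryonic cells of the midgut and hindgut (exMidgut and exHindgut, EPCAM+ mCherry+, together exGut) and embryonic cells of the same regions (emMidgut and emHindgut, EPCAM+ with GFP and low mCherry, together emGut). Yolk sac endoderm (YsEndo, mCherry+ and, per the study, also EPCAM+) was the remaining group. Each had 4 libraries, every library pooled from 4 embryos, a number that the study's methods give for midgut and hindgut. All E6.5 and E9.5 groups were wild type. At E13.5 the embryos carried the Trp53 KO in their extraembryonic cells only, the morulae being knocked out and the stem cells wild type, and from small intestine and colon the groups were the Trp53 KO extraembryonic cells (exSI and exColon, EPCAM+ mCherry+) and the wild-type embryonic cells (emSI and emColon, EPCAM+ GFP+) of such embryos, 3 libraries each from single embryos. The embryonic cells descend from a single stem cell clone, whereas the mCherry+ cells descend from morulae of another cross, and at E13.5 origin also goes with the Trp53 genotype, so that origin, strain, clone and, at E13.5, genotype cannot be told apart. Per the study, the embryonic cells are all male, whereas mCherry+ cells may be of either sex. It also states that emGut cells took up remnants of dying extraembryonic cells, whose RNA can weaken differences from exGut. The part of either was not tested here.

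Guidance receptors sit on the surface of a moving or growing cell and read cues on neighbouring cells or in the matrix. Ephrins are bound to the membrane and signal through Eph receptor kinases on contact, mostly to repel or to sort cells at boundaries. Class 3 semaphorins are secreted and bind a neuropilin that works with a plexin, other semaphorins bind plexins directly, Slit proteins repel cells through Robo receptors, and netrins attract through Dcc and Neo1 or repel through the Unc5 receptors. Named for neurons, the same proteins act in epithelia, blood vessels and the budding of endodermal organs.

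Levels are given as TPM, a read density scaled for transcript length and for the library total, and differences as log2(TPM + 1), first group minus second, a scale on which the change of a weakly expressed gene appears smaller than its ratio. A gene was called where the adjusted p of limma was below 0.05 and the log2 difference exceeded 1 in size. The p-values measure the spread between these libraries. In these bulk libraries, fewer cells of a type and less RNA per cell cannot be told apart. The deepest library held 3.41 times the read depth of the shallowest, and 10382 to 13596 genes lay above 1 TPM. The labelled tissues carried their markers: a list of 8 gut endoderm genes summed to 1174 to 3175 TPM in the E9.5 gut libraries (though also to 1378 to 1752 TPM in YsEndo), a list of 9 yolk sac endoderm genes to 64200 to 75290 TPM in YsEndo, and Pou5f1, the pluripotency factor, averaged 1609 TPM in Epi. Summed blood and endothelial markers stayed at or below 10.99 TPM in every library. In emMidgut, Dppa3, a germ cell gene, stood at 224 and 183 TPM in replicates 1 and 3 and at 0 in the other libraries of the group. In emSI, Col3a1, a mesenchymal collagen, reached 203 TPM. Each main fit with emMidgut or emSI kept these libraries. Only for exGut against emGut was a fit also made without both emMidgut libraries that held Dppa3.

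Of the 72 genes, 63 averaged above 1 TPM in some group, 17 in every group and 9 in none. The number above 1 TPM was lowest in YsEndo (22) and highest in emHindgut (52). Added together, the 72 genes made 242 ± 23.7 TPM in YsEndo and 1002 ± 82.8 TPM in exMidgut (SD, n = 4). The summed levels at E6.5 lay between 344 TPM in exEndo 2 and 459 TPM in Epi, and at E13.5 between 449 TPM in emSI and 700.5 TPM in exColon. No test was made between stages.

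The leading member of a family changed with the stage. Among the ephrins it was Efna5 in Epi at 18.7 ± 1.67 TPM (SD, n = 4), Efnb1 in exEndo 1 at 37.3 ± 15.4 TPM (SD, n = 4) and Efna1 in all E9.5 gut groups, from 118 ± 6.11 TPM (SD, n = 4) in emHindgut to 178 ± 22.2 TPM (SD, n = 4) in exHindgut. Efna1 and Efna4, both ligands anchored to the membrane by a lipid, remained the leading ephrins at E13.5. Among their receptors Epha1 led in Epi at 67.4 ± 17.9 TPM (SD, n = 4), in both exEndo groups and in YsEndo, and Ephb4, the receptor best known for binding Efnb2, led in the midgut groups and in all E13.5 groups. Sema6a, a membrane-bound semaphorin, led in Epi at 92.2 ± 12.9 TPM (SD, n = 4), in both exEndo groups and in the hindgut groups, Sema4a led in YsEndo, and Sema3c, a secreted one, led in the midgut groups and at E13.5, with 116 ± 19.5 TPM (SD, n = 3) in exColon. Robo1 led its family in Epi and exEndo 1, and Robo2 in the E9.5 gut and at E13.5. Slit3 was the leading Slit in Epi at 18.3 ± 9.93 TPM (SD, n = 4), and Slit2 in the hindgut groups. Plxna1 led the plexins and neuropilins in Epi, Plxna2 in exEndo 1, Plxnb2 in exEndo 2, YsEndo, exColon, emColon and emSI, Nrp1 in the hindgut groups, and Nrp2 in the midgut groups and exSI. Neo1 or Unc5b led the netrin receptors in every group. Ligands of the netrin family were low throughout: the highest group mean of any was 8.14 ± 2.15 TPM (SD, n = 4), for Ntng1, a lipid-anchored relative that does not bind Dcc, in emMidgut. Ntn1, the best known ligand of Dcc and the Unc5 receptors, had its highest mean in exEndo 1, at 5.05 ± 2.34 TPM (SD, n = 4), and Dcc itself did not exceed a mean of 0.545 TPM in any group.

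**Figure D1:**
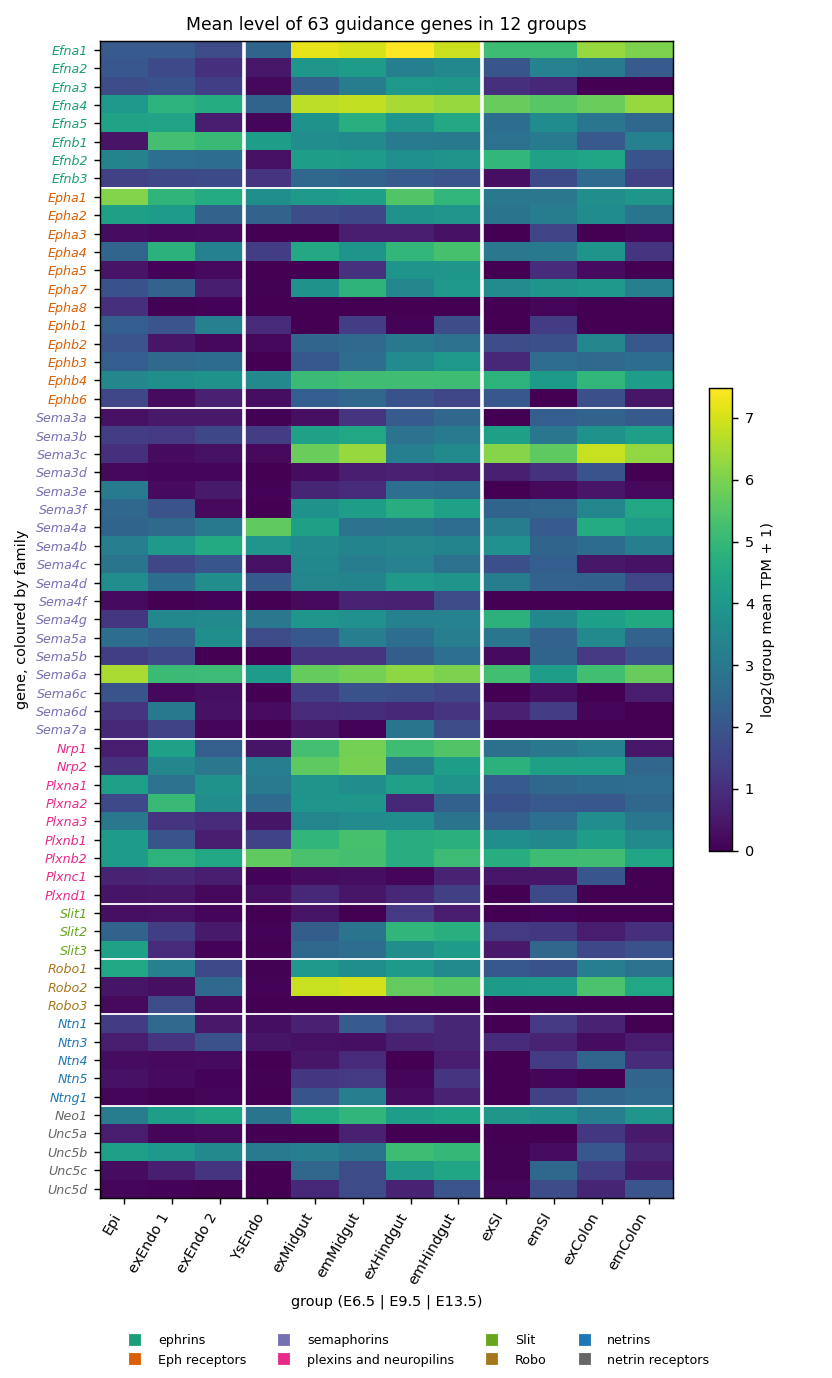
Group mean of each guidance gene above 1 TPM in some group (63 rows, coloured by family) in the 12 groups (columns, white lines between stages), as log2(mean TPM + 1). The E9.5 gut columns hold the highest values of Efna1 and Robo2 (178 TPM in exHindgut and 124 TPM in emMidgut), and the YsEndo column is dark for most rows.

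The first comparison asked how guidance genes differed along the gut at E9.5, hindgut against midgut, over 16 libraries with origin as a covariate. Epha5, Epha2, Slit2, Slit3, Unc5b and Unc5c were among the genes higher in hindgut, and Sema3c, Nrp2, Plxna2 and Robo2 among those higher in midgut. Of 55 guidance genes tested, 14 were called higher in hindgut (25.5%, against 5.54% of all genes tested) and 6 lower (10.9%, against 8.63%), and 35 were not called. The median log2 difference was 0.06 over the 55 genes and -0.01 over all genes. For 10 of the 20 called genes the 8 hindgut and 8 midgut libraries did not overlap, 18.2% of the 55, against 5.37% of all genes tested that were called without overlap. By family, 5 of 10 Eph receptors, 1 of 8 ephrins, 2 of 3 Slit genes, 4 of 17 semaphorins and 2 of 4 netrin receptors tested were called higher in hindgut, and 2 semaphorins, 2 of 8 plexins and neuropilins, 1 of 2 Robo genes and 1 of 3 netrins lower.

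The largest difference was that of Epha5, a receptor of A-type ephrins. Its level was 19.5, 10.1, 11.1 and 14.4 TPM in the 4 exHindgut libraries and 13.7, 16.3, 13.2 and 14.6 TPM in the 4 emHindgut libraries. It had 0, 0.00670, 0 and 0 TPM in exMidgut and 2.61, 1.69, 0 and 0.0638 TPM in emMidgut. No hindgut library came within the midgut range, and the log2 difference was 3.47 ± 0.29 (SE, adjusted p = 5.43e-09). Epha2, another A-type receptor, had 21.6, 11.3, 7.496 and 11.4 TPM in exHindgut and 13.3, 9.18, 12.4 and 20.5 TPM in emHindgut. Against that, the midgut libraries ranged over 0.167 to 4.69 TPM (median 1.90), below every hindgut library, and the difference was 2.33 ± 0.36 (SE, adjusted p = 2.97e-05). Epha1, Epha4, Ephb3 and the ligand Efna3 were also called higher in hindgut, by 1.14, 1.06, 1.48 and 1.29 log2 units. Efna1, the most abundant ligand of these receptors, was not called: it had 114 to 209 TPM (median 142) in hindgut and 72.5 to 199 TPM (median 133) in midgut, with overlapping libraries.

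Slit2, the secreted ligand of the Robo receptors, had 48.8, 22.9, 13.1 and 33.9 TPM in exHindgut and 31.0, 19.8, 23.9 and 27.4 TPM in emHindgut. In exMidgut it had 4.57, 1.80, 2.95 and 5.30 TPM and in emMidgut 8.25, 7.34, 5.21 and 4.88 TPM, all below the hindgut libraries. The log2 difference was 2.24 ± 0.26 (SE, adjusted p = 6.93e-07), and Slit3 moved the same way by 1.55 ± 0.38 (SE, adjusted p = 0.00299). Robo2, its receptor, went in the opposite direction. The exMidgut libraries held 157, 100.6, 82.8 and 124 TPM of Robo2 and the emMidgut libraries 94.5, 149, 108 and 147 TPM. Hindgut libraries ranged over 32.8 to 61.8 TPM (median 49.5) without overlap, a difference of -1.29 ± 0.15 (SE, adjusted p = 5.97e-07). Robo1 was not called, at 5.75 to 19.3 TPM (median 13.1) in hindgut and 5.45 to 21.5 TPM (median 13.8) in midgut.

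Among secreted semaphorins, Sema3c was higher in midgut and Sema3a and Sema3e were higher in hindgut. Sema3c had 52.9, 41.7, 51.5 and 67.0 TPM in exMidgut and 56.1, 68.0, 103 and 93.5 TPM in emMidgut. It had 4.71, 3.82, 7.94 and 16.9 TPM in exHindgut and 9.09, 7.77, 15.3 and 11.4 TPM in emHindgut, so that the lowest midgut library exceeded the highest hindgut library. The difference was -2.74 ± 0.23 (SE, adjusted p = 4.63e-09). Nrp2, which binds Sema3c together with a plexin, was higher in midgut too, with 29.4, 38.6, 71.3 and 55.0 TPM in exMidgut, 37.9, 56.6, 82.1 and 67.7 TPM in emMidgut and 5.03 to 21.8 TPM (median 12.6) over the hindgut libraries, again without overlap (-2.09 ± 0.22 SE, adjusted p = 1.40e-07). Plxna2, a signalling partner of neuropilins, had 11.3, 10.7, 18.3 and 16.4 TPM in exMidgut and 14.5, 15.7, 13.3 and 14.9 TPM in emMidgut. Its hindgut values were 0.295, 0.565, 0.953 and 1.27 TPM in exHindgut and 4.02, 4.33, 3.83 and 3.80 TPM in emHindgut, and the difference was -2.37 ± 0.27 (SE, adjusted p = 3.78e-07). Nrp1, the other neuropilin, was not called, with 25.9 to 50.0 TPM (median 40.5) in hindgut and 27.1 to 94.0 TPM (median 47.0) in midgut. Sema3b was lower in hindgut by 1.51 ± 0.31 (SE, adjusted p = 0.00061), with overlapping libraries. Sema3a, Sema3e and Sema5b were higher in hindgut, by 1.54, 1.85 and 1.39. Sema7a, the lipid-anchored semaphorin that binds Plxnc1, had 10.7, 5.12, 6.29 and 4.08 TPM in exHindgut, 2.04, 2.02, 0.604 and 5.37 TPM in emHindgut and at most 1.38 TPM in midgut (2.02 ± 0.32 SE, adjusted p = 3.99e-05), while Plxnc1 stayed below a mean of 1 TPM in all 4 gut groups.

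The repulsive netrin receptors Unc5b and Unc5c were both higher in hindgut. Unc5b had 28.0, 47.0, 36.0 and 29.6 TPM in exHindgut, 31.4, 31.1, 23.5 and 37.3 TPM in emHindgut and 2.71 to 14.4 TPM (median 6.93) in midgut (2.14 ± 0.25 SE, adjusted p = 8.48e-07). Unc5c had 9.59, 20.7, 13.02 and 17.8 TPM in exHindgut, 21.6, 22.9, 17.7 and 19.1 TPM in emHindgut and 0.580 to 7.70 TPM (median 3.48) in midgut (2.27 ± 0.34 SE, adjusted p = 1.57e-05). For both, every hindgut library lay above every midgut library. Ntn1 was tested and not called, at 0.125 to 3.42 TPM (median 0.363) in hindgut and 0.450 to 4.84 TPM (median 1.54) in midgut, and the attractive receptor Neo1 differed by -0.49. Ntng1 was the netrin lower in hindgut, with 6.10, 6.49, 10.3 and 9.69 TPM in emMidgut, 2.36, 0.596, 3.24 and 5.31 TPM in exMidgut and 0 to 1.66 TPM (median 0.0876) in hindgut (-2.05 ± 0.33 SE, adjusted p = 3.93e-05).

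**Figure D2:**
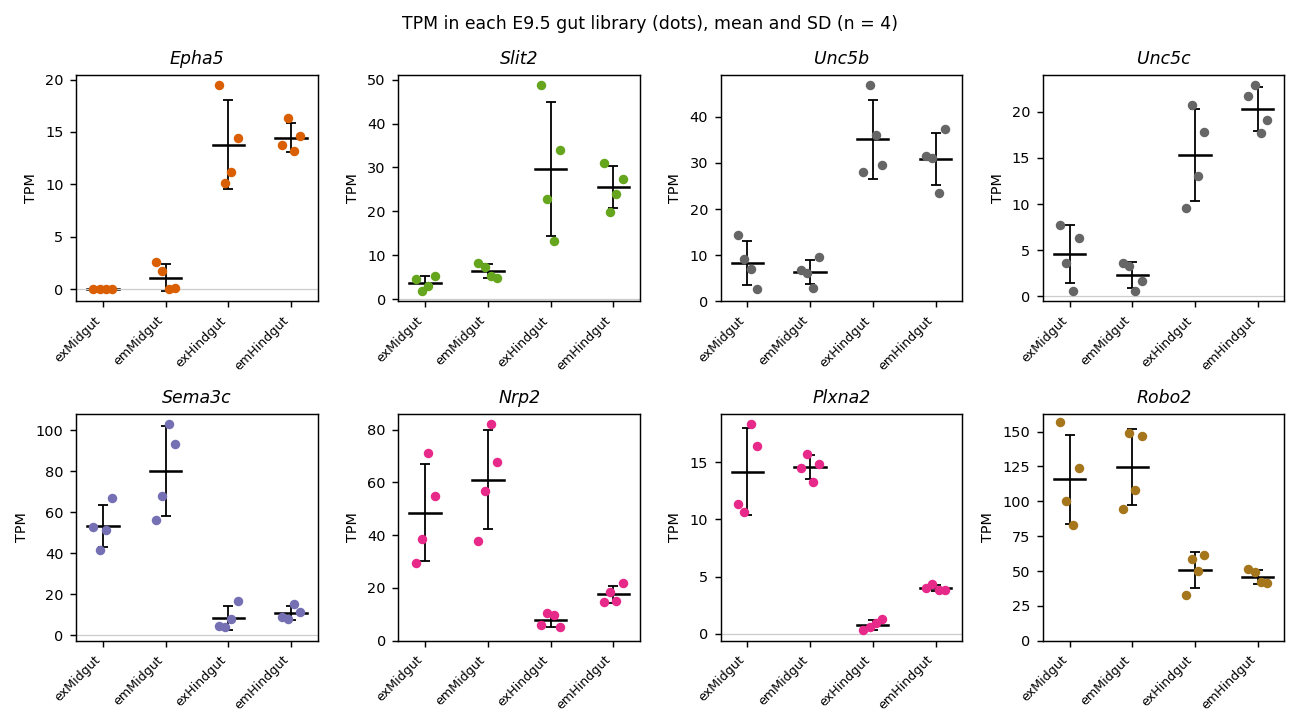
TPM (vertical axes, from 0) of 8 guidance genes in every E9.5 gut library (dots, 4 per group), with the group mean and SD (black). Epha5, Slit2, Unc5b and Unc5c (top) are higher in both hindgut groups, and Sema3c, Nrp2, Plxna2 and Robo2 (bottom) in both midgut groups, with no overlap between regions for any of the 8.

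The regional differences were then fitted in each origin alone, a choice made after seeing the data, on libraries that the fits do not share. In extraembryonic libraries 17 of the 55 genes were called (30.9%, against 10.3% of all genes tested) and in embryonic libraries 18 (32.7%, against 13.1%). The 14 genes called in both had the same direction in both, 8 higher and 6 lower in hindgut, and made 82.4% of the extraembryonic and 77.8% of the embryonic calls. Over all genes tested these shares were 64.7% and 50.7%. All 20 genes called over the 16 libraries had the same sign in each origin. They were chosen on these same libraries, so their shared sign was largely set by the choice and shows little by itself. Across the 55 genes, which are not independent replicates, Pearson's r between the hindgut minus midgut differences of each origin was 0.89. Sema3c fell by 2.72 in the extraembryonic and by 2.77 in the embryonic libraries, and Unc5b rose by 2.10 and 2.18. The test of the difference between the regional effects, the interaction of origin and region, called 0 of the 55 guidance genes and 0.0965% of all genes by limma, with 2 of the 55 (3.64%) and 7.81% of all genes at an unadjusted p under 0.05. Those were Plxna2, at -1.46 ± 0.43 (SE, adjusted p = 0.283), and Ntn1, at 1.91 ± 0.64 (SE, adjusted p = 0.396). Ntn1, not called over the 16 libraries, was called lower in hindgut in embryonic libraries alone, at -1.52 ± 0.42 (SE, adjusted p = 0.0227). In extraembryonic libraries alone its difference was 0.39 ± 0.45 (SE, adjusted p = 0.618).

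**Figure D3:**
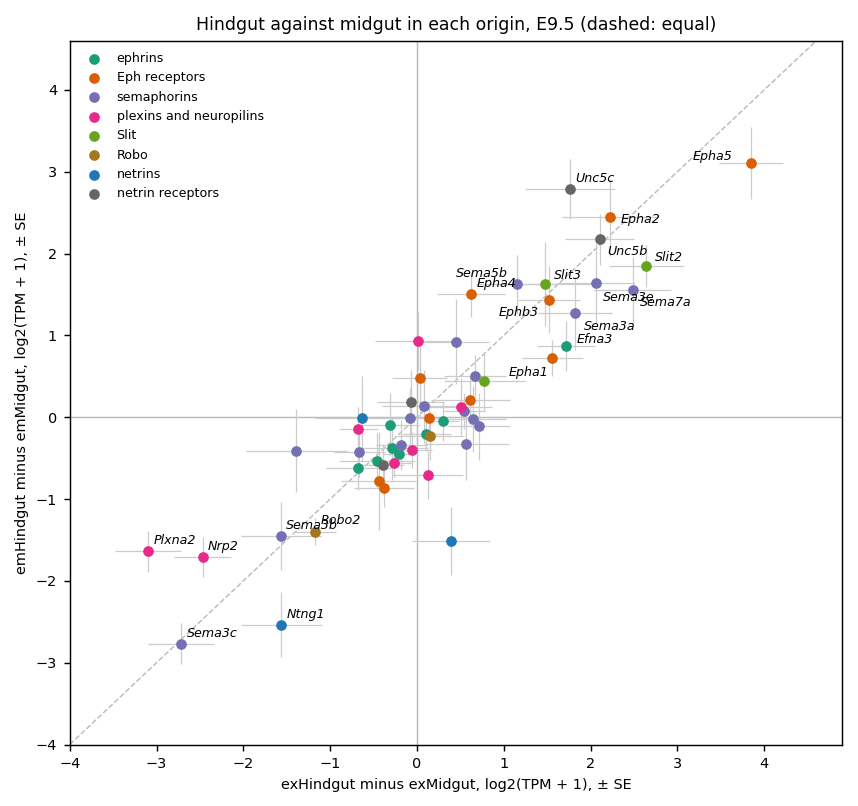
Difference of each of 55 guidance genes between hindgut and midgut in extraembryonic libraries (horizontal axis) and in embryonic libraries (vertical axis), in log2(TPM + 1) with SE bars, coloured by family. Names mark the 20 genes called over all 16 libraries, which were chosen on the same libraries that the axes show. The dashed line marks equal differences.

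T, a gene of the notochord and of the tail end of the gut, had 141 to 286 TPM in exHindgut and 176 to 312 TPM in emHindgut against at most 11.9 TPM in midgut. The whole list of 5 notochord genes, T included, summed to 6.18 to 28.4 TPM in exMidgut, 4.79 to 20.9 TPM in emMidgut, 158 to 302 TPM in exHindgut and 188 to 327 TPM in emHindgut. In exMidgut, emMidgut, exHindgut and emHindgut, in that order, the means of the other 4 were 0.925, 0.180, 1.58 and 5.14 TPM for Noto, 3.77, 4.10, 12.2 and 4.96 TPM for Chrd, 7.11, 2.23, 1.69 and 0.180 TPM for Foxj1 and 2.72, 2.13, 1.02 and 3.54 TPM for Nog. Genes of other tissues are given in the same order and with no test. The neural genes Ncam1 and Sox2 averaged 1.28, 19.4, 18.4 and 59.8 TPM and 12.7, 4.82, 19.6 and 19.6 TPM. Wnt6, a surface ectoderm gene, averaged 0, 0.260, 2.99 and 11.4 TPM, and Twist1, a mesenchyme gene, 0.592, 0, 2.24 and 9.78 TPM. Other genes of these tissues went the other way. Vim, also a mesenchyme gene, averaged 26.7, 133.4, 8.579 and 27.01 TPM, and the neural gene Map2 and the surface ectoderm gene Krt15 were lower in hindgut too. The mesenchyme list had lower mean sums in hindgut, at 40.92, 148.4, 35.78 and 77.29 TPM, but Vim made most of both midgut sums. Of its other genes, Twist1, Prrx1, Pdgfra, Col1a1 and Meox1 were higher in hindgut in both origins. Col1a2, Col3a1 and Foxf1 were higher in hindgut in the embryonic libraries only, and Tbx18 in neither origin. The neural and surface ectoderm lists had higher mean sums in hindgut. The 9 yolk sac endoderm genes summed to 7259 to 17360 TPM in exMidgut and 1522 to 3263 TPM in emMidgut, against 126 to 710.5 and 40.2 to 122.6 TPM in the hindgut groups. The part of any of these in the regional differences was not tested. Of 52 partner genes that act with guidance receptors inside or beside the membrane, 49 were tested. In hindgut 2 were called higher (4.08%, against 5.54% of all genes) and 6 lower (12.2%, against 8.63%). Flrt2, a membrane ligand of Unc5 receptors, was lower by 2.25 ± 0.21 (SE, adjusted p = 1.93e-08), Rnd2, a small GTPase, by 2.24 ± 0.41 (SE, adjusted p = 0.0002) and Met, the receptor of hepatocyte growth factor, by 1.54 ± 0.25 (SE, adjusted p = 4.03e-05), while Mical1, an enzyme downstream of plexins, was higher by 1.17 ± 0.21 (SE, adjusted p = 0.00012).

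Promoter sequences are given for Epha5 and Slit2, called higher in hindgut, and for Sema3c and Robo2, called higher in midgut, to show the stretch at the starts of genes that differed along the gut in either direction. They are RefSeq entries for GRCm38.p6 of 300 bases around the start of the gene, printed in the direction of transcription with each CG in capitals. A promoter was listed for 62 of the 72 genes, and where several were listed, as for Robo2 with 3, the one nearest to the annotated start of the quantified gene is shown. Its own start site lay 0 bases from that start for Epha5 and Robo2, 17 for Slit2 and 535 for Sema3c. Epha5 and Slit2 are chr5:84417333-84417632, minus strand, 30 CG and chr5:47982905-47983204, plus strand, 30 CG. Sema3c and Robo2 are chr5:17574566-17574865, plus strand, 42 CG and chr16:74411776-74412075, minus strand, 17 CG.
Epha5: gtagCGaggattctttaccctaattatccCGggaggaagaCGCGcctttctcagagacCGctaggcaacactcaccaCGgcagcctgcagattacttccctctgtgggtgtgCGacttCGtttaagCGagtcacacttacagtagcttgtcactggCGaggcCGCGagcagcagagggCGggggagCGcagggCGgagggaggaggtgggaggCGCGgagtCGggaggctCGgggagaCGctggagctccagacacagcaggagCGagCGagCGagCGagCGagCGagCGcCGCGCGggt
Slit2: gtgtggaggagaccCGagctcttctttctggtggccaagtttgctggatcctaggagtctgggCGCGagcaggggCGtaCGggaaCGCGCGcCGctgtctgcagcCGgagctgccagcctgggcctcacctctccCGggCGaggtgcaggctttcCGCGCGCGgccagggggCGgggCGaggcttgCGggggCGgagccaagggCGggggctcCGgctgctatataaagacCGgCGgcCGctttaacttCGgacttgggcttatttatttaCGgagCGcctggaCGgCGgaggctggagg
Sema3c: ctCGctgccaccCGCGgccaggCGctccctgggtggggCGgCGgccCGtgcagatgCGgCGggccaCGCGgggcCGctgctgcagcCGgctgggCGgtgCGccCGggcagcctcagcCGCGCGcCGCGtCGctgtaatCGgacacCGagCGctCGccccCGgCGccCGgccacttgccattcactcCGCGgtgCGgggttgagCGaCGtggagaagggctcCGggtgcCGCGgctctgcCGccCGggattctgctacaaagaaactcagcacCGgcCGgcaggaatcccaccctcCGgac
Robo2: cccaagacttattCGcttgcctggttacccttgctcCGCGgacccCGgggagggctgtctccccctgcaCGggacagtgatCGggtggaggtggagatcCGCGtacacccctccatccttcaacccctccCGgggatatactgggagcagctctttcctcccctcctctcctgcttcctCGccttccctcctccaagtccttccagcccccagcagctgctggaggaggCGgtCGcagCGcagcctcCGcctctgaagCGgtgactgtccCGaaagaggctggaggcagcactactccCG
Over all 32851 promoters listed the median was 7 CG. At least 30 CG were held by 11.7% of them, at least 42 by 3.03% and at least 17 by 31.4%. The letters TATAAA, on either strand, were found in the Slit2 promoter and in none of the other 3, and 13.6% of all promoters hold them.

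The second comparison was that of origin, exGut against emGut, 8 libraries each and both regions together. Ephb1 and Unc5d were lower in exGut, and no guidance gene was called higher. Of 55 tested, 0 were called higher in exGut (against 1.08% of all genes) and 2 lower (3.64%, against 1.27%). At an unadjusted p under 0.05 there were 8 of the 55 (14.5%) and 16.5% of all genes. The median log2 difference was -0.16 over the 55 genes and -0.03 over all. Ephb1, a receptor of B-type ephrins, was the lower gene with the larger difference. It had 1.32, 1.81, 0.0285 and 3.19 TPM in emMidgut and 3.81, 1.87, 0.877 and 3.17 TPM in emHindgut, against 0, 0, 0.0795 and 0 TPM in exMidgut and 0, 0, 0 and 0.172 TPM in exHindgut. A single emMidgut library, replicate 3, lay within the exGut range, and the difference was -1.404 ± 0.29 (SE, adjusted p = 0.00798). An exact permutation test of 8 against 8 libraries gave p = 0.000466. That test took the libraries as independent and left out region, though libraries of both regions and origins may share pooled embryos. Efnb1, a ligand of Ephb1, had 4.85 to 17.6 TPM (median 7.74) in exGut and 5.67 to 14.8 TPM (median 8.47) in emGut, and the difference was 0.03. Unc5d, a netrin receptor that also binds Flrt2, had 0.0825 to 1.30 TPM (median 0.894) in exGut and 1.15 to 5.26 TPM (median 2.42) in emGut. The libraries overlapped, and the difference of -1.004 ± 0.27 (SE, adjusted p = 0.0424) sat at the limits of the call, which it lost in 19 of 26 alternatives.

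Efna5, an A-type ephrin, was the 1 guidance gene of the 55 (1.82%) whose exGut and emGut libraries did not overlap, which held for 1.41% of all genes tested. It had 12.5, 9.38, 15.4 and 15.9 TPM in exMidgut and 12.9, 15.6, 11.9 and 16.8 TPM in exHindgut, against 19.5, 30.0, 29.1 and 23.2 TPM in emMidgut and 19.3, 27.0, 18.01 and 23.4 TPM in emHindgut. Its difference of -0.74 ± 0.16 (SE, adjusted p = 0.0127) passed the adjusted p but not the limit on size. Of the abundant members, Robo2 had 32.8 to 157 TPM (median 72.3) in exGut and 41.3 to 149 TPM (median 72.9) in emGut with a mean of 83.4 and 85.2 TPM, and for Efna4, Ephb4 and Sema6a the differences were 0.04, -0.03 and -0.02. For Efna1, Nrp1, Sema3c and Nrp2 they were 0.41, -0.48, -0.53 and -0.73, with means of 163 against 124, 35.9 against 51.4, 30.8 against 45.5 and 28.2 against 39.3 TPM in exGut and emGut. None of these 8 genes was called.

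**Figure D4:**
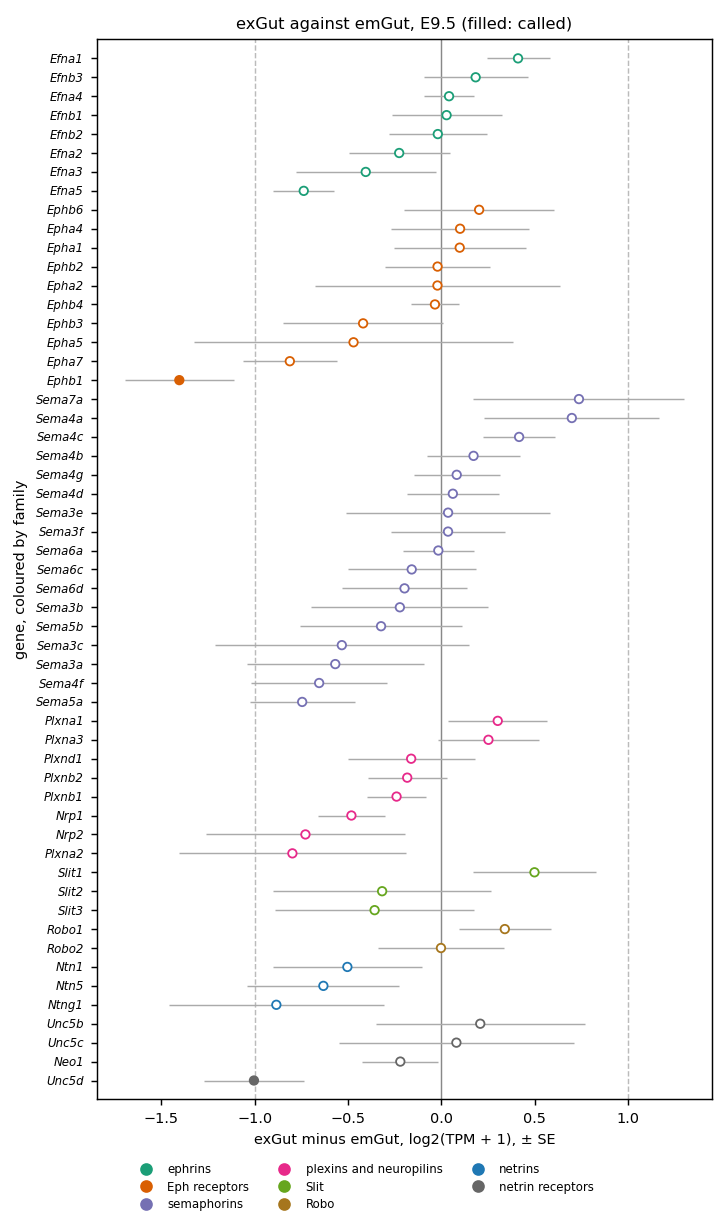
Difference between exGut and emGut for each of the 55 guidance genes tested (rows, coloured by family), in log2(TPM + 1) with SE bars. Filled circles mark the 2 called genes, Ephb1 and Unc5d, and dashed lines the limit of 1 in either direction. Most open circles lie within 1 log2 unit of 0.

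Within the midgut 46 guidance genes were tested and 0 were called by limma, against 2.58% of all genes. At an unadjusted p under 0.05 there were 8 (17.4%), against 16.5% of all genes. Epha7, a receptor of A-type ephrins, and Ntn1 were the nearest to a call, Epha7 at -1.05 ± 0.32 (SE, adjusted p = 0.0921) with overlapping libraries. Ntn1 had 4.84, 2.37, 2.61 and 4.38 TPM in emMidgut and 0.649, 0.698, 0.450 and 0.656 TPM in exMidgut, without overlap and with a difference of -1.46 ± 0.45 (SE, adjusted p = 0.0992). Ntn1 was called without a filter on low values, without the variance trend and with all 44 libraries in a single fit, and Epha7 without exMidgut replicate 1. Within the hindgut 51 were tested, 0 were called higher in exHindgut (1.37% of all genes) and 2 lower (3.92%, against 1.70%). Plxna2, at 0.295, 0.565, 0.953 and 1.27 TPM in exHindgut and 4.02, 4.33, 3.83 and 3.80 TPM in emHindgut, was lower by 1.53 ± 0.38 (SE, adjusted p = 0.0291). Nrp2, at 5.999, 10.55, 9.64 and 5.03 TPM and 14.7, 18.6, 14.9 and 21.8 TPM, was lower by 1.11 ± 0.29 (SE, adjusted p = 0.0418). Both had separate libraries (3.92% of the 51, against 2.93% of all genes called without overlap), and both are genes that were higher in midgut. These calls sat near their limits: 0 of them was left without exHindgut replicate 1 or without any 1 of the 4 emHindgut libraries, and 1 without exHindgut replicate 2 or 4. Over the alternatives the differences stayed at -2.38 to -1.15 for Plxna2 and at -1.26 to -0.943 for Nrp2. Efna1 was higher in exHindgut, with 157, 209, 169.6 and 177 TPM against 115, 116, 127 and 114 TPM, by 0.58 ± 0.11 (SE, adjusted p = 0.00892), under the limit on size.

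Of the partner genes, 49 were tested between exGut and emGut, and 3 were called lower (6.12%, against 1.27% of all genes) and 0 higher (against 1.08%) in exGut. Guidance and partner genes alike were chosen with earlier results of these data known. The study had already linked genes lower in exGut to axon guidance, so these shares are no independent support. The 3 called partner genes code for collapsin response mediator proteins, which act on microtubules downstream of semaphorin receptors. Dpysl2 was lower by 1.397 ± 0.13 (SE, adjusted p = 1.84e-06) with separate libraries, Crmp1 by 1.30 ± 0.30 (SE, adjusted p = 0.0178) and Dpysl5 by 1.17 ± 0.27 (SE, adjusted p = 0.0162). Dpysl2 and Dpysl5 were also called in each region alone, Dpysl2 by -1.400 in midgut and -1.39 in hindgut. With region as a covariate, or with all 44 libraries in a single fit, 7 partner genes were called, while calls over all genes went from 316 to 587 and to 591. In hindgut alone 6 were called, all lower in exHindgut (13%, against 1.70% of all genes), among them Fes, a kinase, by 2.00 and Chl1, a cell adhesion molecule, by 1.66. In midgut alone 3 were called (6.82%, against 2.58% of all genes in either direction), all lower, with Nrcam, another adhesion molecule, as the third. Summed levels of genes listed as markers of other tissues differed between origins too. A list of 10 neural genes summed to 17.2 to 27.3 TPM in exMidgut and 23.8 to 53.0 TPM in emMidgut, and to 31.6 to 57.3 TPM in exHindgut and 84.2 to 101.1 TPM in emHindgut. Of these genes 3, 5, 4 and 4 exceeded 1 TPM in that order, Ncam1 made most of the emHindgut sum with a mean of 59.8 TPM, and the neuronal gene Elavl3 had a mean of at most 0.0712 TPM in each of the 4 groups. The 10 mesenchyme genes summed to 28.8 to 61.1 TPM in exMidgut and 112 to 185 TPM in emMidgut, and to 25.6 to 51.1 and 59.8 to 95.1 TPM in the hindgut groups, with 4, 6, 7 and 7 above 1 TPM. Most of the midgut gap was Vim, an intermediate filament gene that many cell types express. Its mean was 26.7 TPM in exMidgut and 133 TPM in emMidgut. Col1a1, Prrx1 and Meox1 were also higher in emMidgut, at 0.13, 5.584 and 0 against 2.047, 6.548 and 1.018 TPM. Pdgfra, Col3a1 and Foxf1 averaged 4.09, 0.531 and 0.0617 TPM in exMidgut and 2.79, 0.00748 and 0 TPM in emMidgut. Twist1, Col1a2 and Tbx18 were lower in emMidgut too. In hindgut, Vim, Twist1, Prrx1, Pdgfra, Col1a1, Col1a2, Foxf1 and Meox1 were higher in emHindgut, and Col3a1 was lower. Twist1, Pdgfra and Col1a2 averaged 2.242, 7.277 and 2.529 TPM in exHindgut and 9.781, 12.14 and 6.532 TPM in emHindgut. Without the pair of emMidgut libraries that held Dppa3, Ephb1 was still called, at -1.68, and Unc5d was not. The part of neural, mesenchymal or germ cell RNA in these differences was not tested.

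The third comparison set exGut, 8 libraries, against the 4 of YsEndo, as extraembryonic endoderm inside and outside the embryo. Of the genes tested, 7 of 8 ephrins, both Robo genes, Nrp1, Sema3c and Sema3f were higher in gut, and Sema4a was higher in yolk sac. Of 49 tested, 32 were called higher in exGut (65.3%, against 32.3% of all genes) and 1 lower (2.04%, against 10.0%). The median difference was 1.74 over the 49 genes and 0.59 over all genes, and 30 of the 33 called genes had separate libraries, 61.2% of the 49 against 33.9% of all genes tested. With median-ratio rescaling, which brings the median of all genes to 0.08, the calls were 30 higher and 3 lower, and with quantile normalization, where it is 0.04, 25 and 4. Efnb1 and Plxnb2, and under quantile normalization also Sema4b, then joined Sema4a among the lower. Over all genes, 4138 of 5423 calls were higher in exGut, against 2719 of 4963 with median-ratio rescaling and 2124 of 4274 with quantile normalization. Robo2 had 0.107, 0, 0.0649 and 0 TPM in YsEndo and 32.8 to 157 TPM (median 72.3) in exGut (6.18 ± 0.34 SE, adjusted p = 2.39e-09). Efna1 had 4.93, 5.28, 5.46 and 1.64 TPM in YsEndo and 97.6 to 209 TPM (median 168) in exGut (5.00 ± 0.25 SE, adjusted p = 7.29e-10). Nrp1 had 0.280, 0.998, 0 and 0.0368 TPM against 25.9 to 47.9 TPM (median 36.0) (4.82 ± 0.25 SE, adjusted p = 1.19e-09), and Efna4 had 4.30, 7.58, 2.78 and 2.65 TPM against 80.2 to 139 TPM (median 87.3) (4.27 ± 0.23 SE, adjusted p = 1.76e-09). The secreted semaphorin Sema3c was higher in exGut by 4.20. Sema3f, another, was listed at 0 in all YsEndo libraries and had 9.81 to 36.2 TPM (median 14.3) in exGut. Efnb1, the remaining ephrin, had 15.7, 16.5, 16.4 and 20.0 TPM in YsEndo and 4.85 to 17.6 TPM (median 7.74) in exGut and was not called (-0.89). By family 6 of 9 Eph receptors, 10 of 16 semaphorins, 3 of 8 plexins and neuropilins, 2 of 3 Slit genes and 2 of 3 netrin receptors tested were also called higher. Sema4a was the gene called lower in exGut. It had 42.7, 50.7, 53.1 and 53.1 TPM in YsEndo, 9.93, 13.8, 8.63 and 40.7 TPM in exMidgut and 3.71, 1.98, 15.7 and 4.89 TPM in exHindgut (-2.36 ± 0.53 SE, adjusted p = 0.00149). Plxnb2, a plexin that binds class 4 semaphorins, had 34.7, 54.2, 56.7 and 53.5 TPM in YsEndo and 19.6 to 48.5 TPM (median 31.4) in exGut, a difference of -0.66 that was not called. Of 42 partner genes tested, 26 were called higher (61.9%, against 32.3% of all genes) and 0 lower (against 10.0%) in exGut. They were led by Dpysl2 at 5.27 ± 0.19 (SE, adjusted p = 4.08e-11) and Gpc1, a heparan sulfate proteoglycan that binds Slit, at 4.61 ± 0.21 (SE, adjusted p = 4.58e-10).

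At E6.5, exEndo 1 was compared with Epi, the layers that the study takes as the sources of exGut and emGut. Efnb1, Nrp1, Nrp2 and Plxna2 were higher in exEndo 1, and Slit3, Sema3e, Plxna1, Plxna3 and Plxnb1 higher in Epi. Of 44, 9 were called higher in exEndo 1 (20.5%, against 19.8% of all genes) and 13 lower (29.5%, against 13.6%), and 20 of these 22 had separate libraries, 45.5% of the 44 against 32.5% of all genes tested. The median difference was -0.19 over the 44 genes and 0.09 over all. Efnb1, the B-type ephrin, had 16.3, 43.6, 52.5 and 36.6 TPM in exEndo 1 and 0.0679, 0.1003, 0.516 and 0.583 TPM in Epi (4.77 ± 0.32 SE, adjusted p = 2.64e-07). Nrp1 had 19.7, 25.1, 13.3 and 16.1 TPM in exEndo 1 and 0.0801, 0.526, 0.575 and 0.913 TPM in Epi (3.68 ± 0.23 SE, adjusted p = 1.79e-07), and Plxna2 33.6, 32.2, 27.4 and 35.5 TPM and 0.267, 2.27, 2.93 and 3.08 TPM (3.53 ± 0.33 SE, adjusted p = 3.39e-06). The libraries of the groups did not overlap for any of these 3. Epha4, Nrp2 and Sema4g were higher by 2.43, 2.38 and 2.27, and Sema6d, Ntn1 and Neo1 by 1.70, 1.29 and 1.04. Epi was higher for Slit3, with 6.22, 17.1, 19.6 and 30.4 TPM against 0.0795, 2.17, 0.428 and 0.785 TPM (-3.31 ± 0.43 SE, adjusted p = 4.88e-05), and for Sema3e, with 8.50, 6.52, 7.15 and 7.15 TPM against 0.0395, 0.363, 0.147 and 0.0846 TPM (-2.85 ± 0.16 SE, adjusted p = 6.71e-08). The receptor of Sema3e, Plxnd1, averaged 0.334 and 0.358 TPM in Epi and exEndo 1 and was not tested. Plxnb1, Plxna3, Sema6c and Sema6a were lower in exEndo 1 by 2.17, 1.89, 1.71 and 1.59. Of 37 partner genes tested, 10 were called higher (27%, against 19.8% of all genes) and 11 lower (29.7%, against 13.6%), with Crmp1 at -4.78 and Dpysl2 at -4.20 and the Unc5 ligand Flrt3 at 4.34.

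Distal and proximal extraembryonic endoderm were then compared, exEndo 1 against exEndo 2, at the same stage. Efna5, Ntn1, Nrp1, Sema6d and Robo1 were higher distally, and Robo2 and Plxna1 proximally. Of 36 tested, 10 were called higher in exEndo 1 (27.8%, against 3.96% of all genes) and 5 lower (13.9%, against 2.45%), and all 15 had separate libraries, 41.7% of the 36 against 5.96% of all genes tested. The median difference was 0.15 over the 36 genes and 0.02 over all. Efna5 had 41.9, 9.77, 6.29 and 21.5 TPM in exEndo 1 and 0.393, 0.599, 0.492 and 0.426 TPM in exEndo 2 (3.49 ± 0.45 SE, adjusted p = 0.00051), with 17.2, 18.2, 18.3 and 21.1 TPM in Epi. Ntn1 had 5.23, 7.93, 2.21 and 4.82 TPM and 0.303, 0.305, 0.588 and 0.527 TPM (1.99 ± 0.29 SE, adjusted p = 0.00116). Nrp1 had 19.7, 25.1, 13.3 and 16.1 TPM and 1.89, 8.73, 1.90 and 2.67 TPM (2.20 ± 0.36 SE, adjusted p = 0.00235), and Sema6d 11.6, 5.85, 1.37 and 9.99 TPM and 0.277, 0.522, 0.107 and 0.256 TPM (2.42 ± 0.44 SE, adjusted p = 0.00426). Plxna1, a receptor through which Sema6d can signal, was lower in exEndo 1, at 5.03, 5.97, 6.91 and 5.55 TPM against 15.2, 12.4, 12.9 and 12.4 TPM (-1.05 ± 0.16 SE, adjusted p = 0.00135), while Plxna2 was higher by 1.35. Epha2, with 9.93, 22.9, 15.7 and 16.8 TPM in exEndo 1 and 3.41, 4.69, 3.96 and 4.77 TPM in exEndo 2, and Sema3f were higher by 1.69 and 1.60. Robo1 and Robo2 went in opposite directions. Robo1 had 15.1, 5.59, 3.68 and 10.2 TPM in exEndo 1 and 1.45, 3.55, 2.21 and 1.34 TPM in exEndo 2 (1.51 ± 0.37 SE, adjusted p = 0.0188), and Robo2 had 0.431, 0.0960, 0.0348 and 0.383 TPM and 2.97, 12.3, 2.54 and 1.92 TPM (-1.98 ± 0.42 SE, adjusted p = 0.00913). Ephb1, Sema5a and Sema4d were lower in exEndo 1 by 1.29, 1.28 and 1.09. Sema4d lost its call without any 1 of 5 of the 8 libraries, Plxna1 without replicate 1 of either group and Robo1 without replicate 4 of either group. Among 29 partner genes tested 6 were called higher (20.7%, against 3.96% of all genes), led by Mical1 at 2.62 ± 0.26 (SE, adjusted p = 9.29e-05), and 1 lower (3.45%, against 2.45%).

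**Figure D5:**
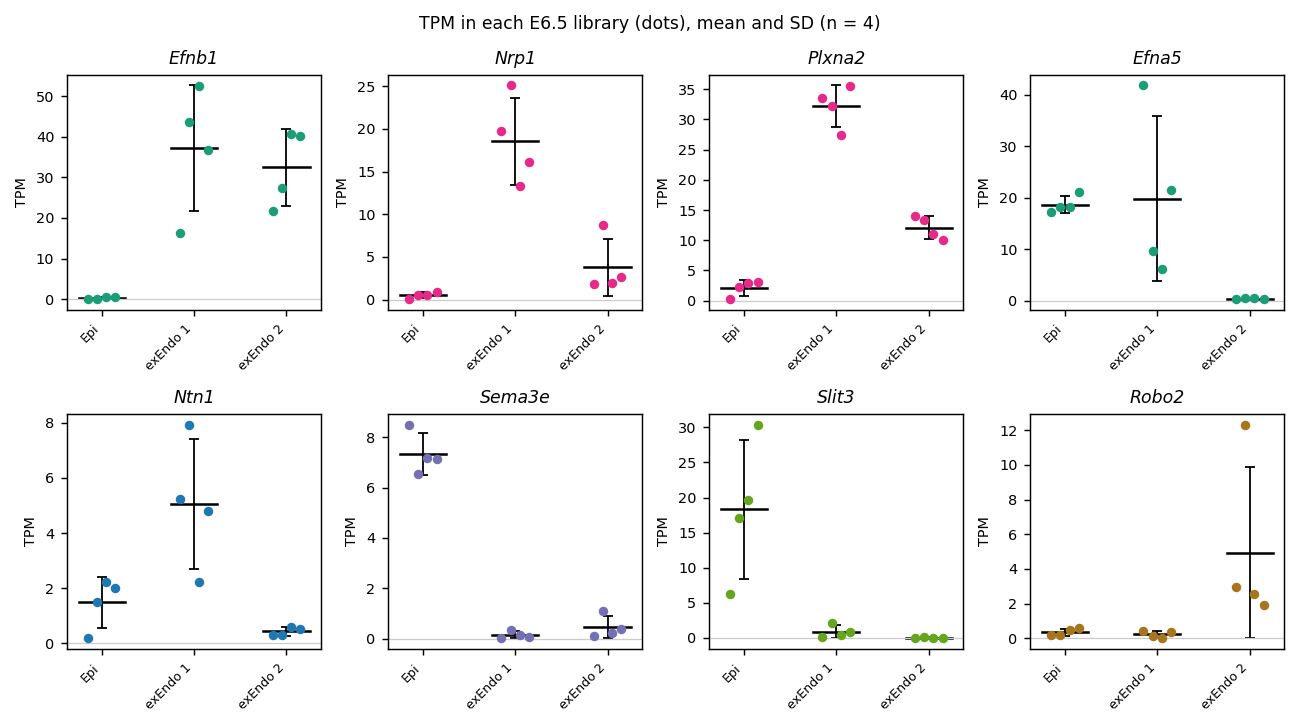
TPM (vertical axes, from 0) of 8 guidance genes in every E6.5 library (dots, 4 per group) with the group mean and SD (black). Efnb1, Nrp1 and Plxna2 are lowest in Epi, Sema3e and Slit3 highest in Epi, Efna5 and Ntn1 lowest in exEndo 2, and Robo2 highest in exEndo 2, where replicate 2 stands at 12.3 TPM.

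Epiblast genes were also higher in exEndo 1 than in exEndo 2: a list of 8 summed to 373 to 686 TPM in exEndo 1, 174 to 232 TPM in exEndo 2 and 3322 to 4864 TPM in Epi, with 7, 3 and 8 of the 8 above 1 TPM. The defining epiblast gene Pou5f1 had 2.29 to 21.7 TPM in exEndo 1, on average 0.787% of its Epi mean. Efna5 in exEndo 1 stood at 106% of its Epi mean, Epha2 at 90.5%, Sema3f at 58.0% and Robo1 at 41.4%. Other epiblast genes of the list were also present, Fgf5 at 81.1% and Otx2 at 29.7% of their Epi means. The part of epiblast RNA in these values was not tested.

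At E13.5, the extraembryonic cells, which lacked Trp53, were compared with the wild-type embryonic cells of such embryos, 6 libraries each with the organ as a covariate. Of 48 guidance genes tested, 0 were called by limma, against 0.625% of all genes, and 5 (10.4%) had an unadjusted p under 0.05, against 11.3% of all. The largest difference among those 5 was that of Efnb2, the membrane ligand of Ephb4, with 34.3, 24.6 and 31.1 TPM in exSI, 27.9, 18.2 and 14.5 TPM in exColon, 16.9, 13.54 and 25.0 TPM in emSI and 5.80, 0 and 2.71 TPM in emColon (1.75 ± 0.54 SE, adjusted p = 0.192). Unc5d, lower in exGut at E9.5, had 0.114, 0.144 and 0 TPM in exSI and 0, 0.817 and 1.29 TPM in exColon against 3.04, 1.11 and 3.13 TPM in emSI and 4.32, 3.13 and 1.37 TPM in emColon, a difference of -1.41 ± 0.47 (SE, adjusted p = 0.244). Both were chosen after their values were seen. Between colon and small intestine 48 genes were tested and 0 were called, against 1.30% of all genes, with 10 (20.8%) at an unadjusted p under 0.05, against 11.8% of all. Ntng1 was the nearest to a call (1.89 ± 0.52 SE, adjusted p = 0.102), at 3.76, 4.48 and 5.05 TPM in exColon and 2.26, 5.88 and 7.42 TPM in emColon, with all exSI libraries at 0 and emSI at 4.30, 0.179 and 0.858 TPM. The spread of these libraries was larger than at the earlier stages: the median residual SD of the guidance genes was 0.902 log2 units, against 0.516 in the regional fit at E9.5. With all 44 libraries in a single fit, where it was 0.585, 8 guidance genes were called between origins (16.7%, against 9.67% of all genes) and 11 between organs (22.9%, against 10.8%). That fit takes its spread from all stages, so its p-values understate the spread of the E13.5 libraries, and these calls are no firmer result. Without emSI replicate 1, Ntng1 was called between organs. Sema3c was abundant in both organs, at 86.3, 61.9 and 58.3 TPM in exSI, 43.4, 56.1 and 44.7 TPM in emSI, 99.6, 111 and 138 TPM in exColon and 73.8, 86.7 and 69.3 TPM in emColon. None of the 42 partner genes tested was called in either comparison. The 10 mesenchyme genes summed to 109 to 518 TPM in emSI and 4.65 to 53.5 TPM in exSI, with 6 and 1 above 1 TPM. They summed to 96.5 to 160.1 TPM in emColon and 16.2 to 72.7 TPM in exColon, with 3 in each. Vim made most of both colon sums, with means of 125 TPM in emColon and 37.4 TPM in exColon. Col3a1 had 203, 43.9 and 0 TPM in the emSI libraries and 10.7, 7.09 and 0.348 TPM in emColon. The part of the mesenchyme genes in the E13.5 values was not tested.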

How the data were processed

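RNA of 44 libraries was sequenced after low-input amplification of poly(A) RNA. Per the submitters' notes, adapters were removed by cutadapt 4.1, the mm10 alignment (GFP and mCherry sequences added) was made by STAR 2.7.9a and levels were estimated by StringTie 2.0.6. The deposited values are TPM, FPKM and coverage (a signal per base) per gene, without read counts, so the depth in reads is unknown and no interval from counts is given. Relative depth was read from coverage per FPKM. TPM was summed per gene identifier. FPKM served an alternative and coverage only the depth.

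The guidance genes, the 52 partner genes and the marker lists were chosen with earlier results of these data known. Protein-coding genes outside chromosome Y above 1 TPM in at least 4 libraries of a comparison (3 at E13.5) were tested with limma 3.58.1 in R 4.3.3 on log2(TPM + 1), with a variance trend and Benjamini-Hochberg adjustment over all genes tested. A call needed an adjusted p below 0.05 and, except for the interaction, a log2 difference above 1. For Ephb1 a two-sided, unadjusted exact permutation test is also given. The fit was tested on simulated data. Named with values were the called guidance genes with the largest differences (up to 10 per direction for exGut against emGut, 6 otherwise), the leading member of each family in each group, the best known receptor or ligand of a named gene, and up to 4 called partner genes. Others, such as the nearest to a call, were chosen after their values were seen. Alternatives were a pseudocount of 0.1, no filter, FPKM, quantile and median-ratio scaling, no trend, a replicate block, all 44 libraries in a single fit, and each library left out. Replicate numbers paired exEndo 1 with exEndo 2: the deviations of same-numbered libraries correlated at 0.167 to 0.402, above 0.1 in all 4 pairs, against at most 0.111 for other numbers.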

Additional observations from a re-analysis of the deposited data

Results flagged for a closer look

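In 7 of 94 sets of 4 libraries examined, 1 library stood far from the other 3, where chance gives about 1 in 20. At E6.5, exEndo 2 replicate 2 was the highest for both Robo2, at 12.33 TPM against 1.92 to 2.97 TPM in the others, and Nrp1, at 8.73 TPM against 1.89 to 2.67 TPM. Robo2 was called lower and Nrp1 higher in exEndo 1, and both kept these calls without that library. Plxna1 was highest in exEndo 2 replicate 1, at 15.24 TPM against 12.4 to 12.9 TPM. In exEndo 1, Nrp2 was lowest in replicate 2, at 6.14 TPM against 10.96 to 11.6 TPM, and Sema4g lowest in replicate 1, at 6.35 TPM against 11.2 to 12.02 TPM. At E9.5, Efna1 was lowest in YsEndo replicate 4, at 1.64 TPM against 4.93 to 5.46 TPM, and Sema4a highest in exMidgut replicate 4, at 40.7 TPM against 8.63 to 13.8 TPM.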

How the results depend on the processing

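Of 904 alternative values of 46 named differences, 853 kept their direction and call, 51 kept the direction and lost the call, and 0 reversed. All 192 of exEndo 1 against Epi, 312 of hindgut against midgut and 140 of exGut against YsEndo kept it, while 14 of 176 were lost between exEndo 1 and exEndo 2, 20 of 52 between exGut and emGut and 17 of 32 between exHindgut and emHindgut. For exGut against emGut, 1 guidance gene in place of 2 was called with a pseudocount of 0.1, quantile normalization, median-ratio rescaling, the replicate block, or without the pair of emMidgut libraries holding Dppa3, and 0 with FPKM. Between exMidgut and emMidgut 1 was called without a filter and 1 without the trend, and between exHindgut and emHindgut 1 with a pseudocount of 0.1 and 1 without the trend. With all 44 libraries in a single fit the counts were 9 for exEndo 1 against exEndo 2, 2 for exMidgut against emMidgut, 8 for E13.5 origin and 11 for E13.5 organ, and the calls over all genes went from 732 to 458 (exEndo 1 against exEndo 2), 316 to 591 (exGut against emGut), 78 to 1207 and 162 to 1347 (E13.5 origin and organ) and 13 to 47 (interaction). Between exHindgut and emHindgut, the single fit of 44 libraries called 1 guidance gene higher and 1 lower, in place of 2 lower. That fit takes its spread from libraries of all stages, and the cause of the changed counts was not tested. With region as a covariate, exGut against emGut had 587 calls over all genes. Without a filter, calls over all genes were 173 in midgut (321), 223 in hindgut (378), 81 between E13.5 organs (162) and 8 for the interaction (13), which had 0 with a pseudocount of 0.1 and 8 without the trend. In fits chosen after seeing the data, with fewer libraries, E13.5 origin had 10 calls in colon and 37 in small intestine, and E13.5 organ 6 in extraembryonic and 15 in embryonic libraries. Leaving out 1 library gave 21 to 22 called guidance genes for exEndo 1 against Epi, 13 to 15 for exEndo 1 against exEndo 2, 1 to 2 for exGut against emGut, 0 to 1 for exMidgut against emMidgut, 0 to 2 for exHindgut against emHindgut, 18 to 21 for hindgut against midgut, 31 to 38 for exGut against YsEndo and 0 to 1 for E13.5 organ. Same-numbered libraries correlated at -0.0193 to 0.0798 at E9.5 and E13.5 and at -0.167 to 0.196 between Epi and exEndo 1. Such values cannot show whether they came from the same embryos or pools. The replicate block changed no other count of guidance genes by over 1.5 times. Without read counts, what depth limits could not be measured.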
